A study of Drosophila melanogaster with 8 samples.

Results

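Aminoacyl-tRNA synthetases are the enzymes that load each amino acid onto its transfer RNA. In the central nervous system (CNS) of the Drosophila larva, 33 genes of this family were followed across 3 genotypes. They were chosen by name from a table of 17807 genes, as an amino acid's 3-letter code followed by RS, with -m at the end for a mitochondrial enzyme, together with GluProRS, which charges both glutamate and proline. Of the 33 genes, 18 encode cytoplasmic and 15 encode mitochondrial enzymes. The name rule leaves out alpha-PheRS and beta-PheRS, the subunits of the cytoplasmic phenylalanine enzyme, which are described apart.

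A synthetase activates its amino acid with ATP and transfers it to the matching transfer RNA, and the ribosome then reads the charged transfer RNA. The nuclear genome of animals encodes separate enzymes for the ribosomes of the cytoplasm and for those inside mitochondria, which make a small set of respiratory chain proteins, and a few genes supply both compartments. In these data 14 amino acids had both a cytoplasmic and a mitochondrial member, with GluProRS set beside GluRS-m and beside ProRS-m to give the pairs of those amino acids. The 5 cytoplasmic genes with no mitochondrial partner in the table were GlnRS, GlyRS, HisRS, LysRS and ThrRS. Synthetases fall into classes I and II, which have unrelated catalytic folds. In humans some of the cytoplasmic enzymes sit together in a multisynthetase complex held by the AIMP scaffold proteins.

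Total RNA was sequenced from CNS dissected from larvae in the L1 stage. The wild-type strain Canton-S is represented by 3 libraries, the elav5 single mutant by 2 and the elav5/fne double mutant by 3, and values by library are given in the order of their replicate numbers. elav5 is a knockout deletion of elav, and the elav5/fne larvae carry a deletion of fne as well, so both mutants share the elav deletion. All larvae were viable homozygotes picked by a visible marker, and Canton-S is a separate strain, with no control from the mutants' own crosses in these data. elav and fne encode neuronal RNA-binding proteins of the ELAV/Hu family, known for their part in alternative splicing and in the choice of RNA 3′ ends. Whether the libraries of 1 genotype were made from different animals is not given in the labels. The p-values reflect the spread among these libraries alone, and that spread may be technical.

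Each library held between 30038106 and 38056274 reads counted in genes. CPM values scale a gene's reads to a fixed library total. Counts of elav ranged from 599 to 620 CPM (Canton-S) and from 24.4 to 61.0 CPM in the mutants, and fne was at 938 to 1129 CPM where it is intact and at 127 to 179 CPM in elav5/fne. The 5 neuron markers summed to between 6650 and 7787 CPM in Canton-S and the single mutant and to between 3672 and 4339 CPM in the double mutant, whereas 5 neuroblast markers summed to between 180 and 259 CPM and to between 777 and 1007 CPM. The 5 glia markers summed to between 3892 and 4105 CPM in Canton-S and to 4543 and 5527 CPM in the single mutant. In the double mutant their sum was between 3363 and 4261 CPM. Markers of tissue outside the CNS also moved. The 11 muscle markers summed to between 816 and 2678 CPM in Canton-S and the single mutant and to 2780, 6226 and 15408 CPM in the double mutant, with the 9 gut markers at 548 CPM in double mutant replicate 3 against at most 149 CPM elsewhere. Canton-S replicate 2 stood apart in its 5 fat body markers, 500.2 CPM in sum against at most 3.12 CPM in the other 7 libraries. For 6 hemocyte markers the single mutant libraries held sums of 222 and 20.1 CPM, the Canton-S libraries 386 to 595 CPM and the double mutant libraries 443 to 1192 CPM. The 6 markers of trachea and cuticle reached 201 CPM in double mutant replicate 3 against at most 81.4 CPM elsewhere. In a bulk sample fewer cells of a type and less RNA per cell cannot be told apart, and the part of these markers in the synthetase results was not tested.

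All 33 synthetase genes were detected in every library, with between 52 reads (GluRS-m) and 5270 reads (AspRS-m) per gene and library, and all passed the filter on low values. Levels of different genes were compared in Canton-S as CPM per kilobase of exon. Cytoplasmic enzymes ranged from 9.49 (CysRS) to 47.6 CPM per kb (LysRS) with a median of 24.8, and mitochondrial enzymes ranged from 1.24 (GluRS-m) to 31.2 (AspRS-m) with a median of 5.80. At the top stood LysRS at 47.6 ± 7.21, TyrRS at 42.2 ± 1.60 and ThrRS at 40.3 ± 5.52 CPM per kb (SD, n = 3). All genes were measured in the same libraries, and differences between genes were not tested. The order went on through AsnRS, SerRS and MetRS to AspRS-m at 31.2 ± 0.95 and PheRS-m at 30.8 ± 4.10 CPM per kb (SD, n = 3). These 2 mitochondrial enzymes thus stood among the cytoplasmic ones, just above HisRS and IleRS. GlyRS, AspRS, ValRS, TrpRS, ArgRS, GluProRS, LeuRS, AlaRS and GlnRS followed, then LeuRS-m at 12.2 CPM per kb and CysRS, the lowest cytoplasmic enzyme, and the other 12 mitochondrial enzymes were at or below 8.15 CPM per kb.

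**Figure D1:**
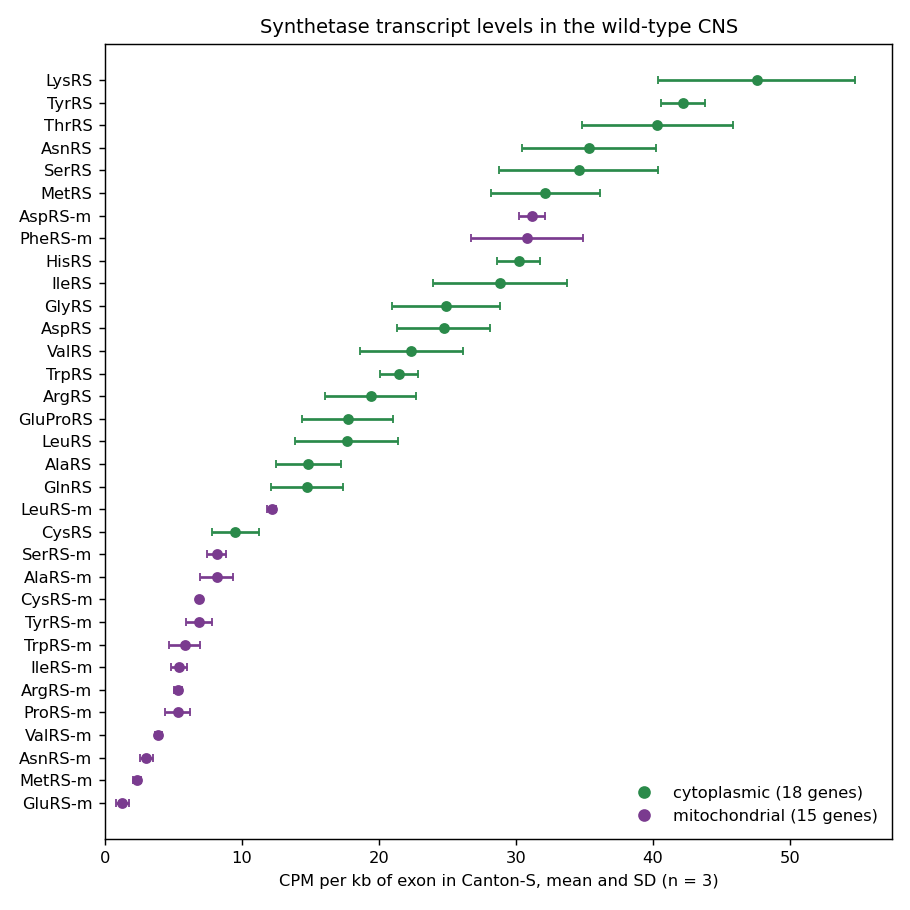
Level of each of the 33 synthetase genes in Canton-S, in CPM per kilobase of exon, with points at the mean of the 3 libraries and bars for the SD. Most mitochondrial enzymes lie below the cytoplasmic ones, while AspRS-m (31.2) and PheRS-m (30.8) lie among them.

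Changes between genotypes are log2 differences of CPM + 1, with a standard error (SE) and an adjusted p from limma, called at an adjusted p under 0.05 over the 10575 genes tested. In the double mutant most mitochondrial synthetases fell against Canton-S, while most cytoplasmic ones did not pass the test. Of the 15 mitochondrial genes 10 fell, 66.7%, where 26.7% of all genes tested fell. None of the 15 rose by limma (also 0 at an unadjusted p under 0.05, by edgeR and by DESeq2), where 32.5% of all genes rose. Of the 18 cytoplasmic genes 5 fell, 27.8%, a share near the background, and 2 rose, 11.1%. In all, 7 of 18 cytoplasmic and 10 of 15 mitochondrial genes were called, where 59.2% of all genes were. The median log2 change was -0.52 over the mitochondrial genes (range -1.04 to 0.27) and -0.19 over the cytoplasmic genes (range -0.57 to 0.62), beside 0.07 over all genes tested. The difference between the cytoplasmic and the mitochondrial set was not itself tested.

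AspRS-m, the mitochondrial aspartate enzyme (2L, 16827078 to 16832093, dm6), had the highest mean CPM of all mitochondrial members and the largest fall. It measured 133, 142 and 138 CPM (Canton-S), 95.3 and 92.9 CPM (elav5) and 59.7, 62.1 and 78.7 CPM (elav5/fne). The 3 genotypes did not overlap, and the single mutant lay between the others. Over all genes tested, 31.9% had every double mutant library below every Canton-S library, as did 11 of the 15 mitochondrial and 4 of the 18 cytoplasmic synthetases. AspRS-m fell by 1.04 on the log2 scale in the double mutant (SE 0.10, limma adjusted p = 9.5e-05).

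MetRS-m, which charges the methionine transfer RNA of mitochondria, measured 9.16, 11.6 and 9.30 CPM (Canton-S), 5.26 and 5.03 CPM (elav5) and 3.52, 4.88 and 5.77 CPM (elav5/fne). CysRS-m, the cysteine enzyme, measured 14.6, 14.5 and 14.4 CPM (Canton-S), 9.45 and 10.7 CPM (elav5) and 7.01, 5.998 and 9.19 CPM (elav5/fne). Every mutant library was below every Canton-S library for both genes. Against Canton-S, MetRS-m fell by 0.96 (SE 0.18, limma adjusted p = 0.0024) and CysRS-m fell by 0.90 in the double mutant (SE 0.15, limma adjusted p = 0.0015).

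TrpRS-m, the tryptophan enzyme, measured 12.7, 17.5 and 12.8 CPM (Canton-S), 7.16 and 7.96 CPM (elav5) and 6.64, 6.66 and 9.78 CPM (elav5/fne). SerRS-m, the serine enzyme, measured 19.9, 22.9 and 19.7 CPM (Canton-S), 10.8 and 12.5 CPM (elav5) and 10.8, 9.87 and 14.4 CPM (elav5/fne). Again every mutant library was below every Canton-S library, and double mutant replicate 3, the library richest in muscle and gut markers, was the highest of its group for both genes. It was the highest of its group for 26 of the 33 synthetases, 14 of them mitochondrial. The share over all genes was not computed. TrpRS-m fell by 0.83 in the double mutant (SE 0.19, limma adjusted p = 0.006) and SerRS-m fell by 0.79 (SE 0.15, limma adjusted p = 0.0028). SerRS-m shares 356 exon bases with Nagk on the opposite strand, and Nagk itself went from between 201 and 216 CPM in Canton-S to between 49.9 and 79.7 CPM in the mutants, so the SerRS-m value is uncertain if the authors' counting did not use strand.

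The other falls among mitochondrial enzymes were those of ValRS-m, IleRS-m, AlaRS-m, LeuRS-m and ArgRS-m, between 0.41 and 0.79 on the log2 scale in size, and none of these groups overlapped. ArgRS-m and CysRS-m share 325 and 302 exon bases with mRpS9 and CG13016 on the opposite strand, so their values carry the same uncertainty as that of SerRS-m. LeuRS-m, behind AspRS-m and PheRS-m by mean CPM, measured 37.1, 37.5 and 35.5 CPM (Canton-S), 24.8 and 27.9 CPM (elav5) and 26.2, 24.6 and 29.6 CPM (elav5/fne). The 5 mitochondrial members that did not pass the test were PheRS-m, TyrRS-m, ProRS-m, AsnRS-m and GluRS-m. PheRS-m, the second by CPM, measured 42.9, 44.0 and 54.2 CPM (Canton-S), 44.0 and 52.3 CPM (elav5) and 41.2, 39.5 and 39.0 CPM (elav5/fne). Its double mutant libraries all lay below Canton-S, by little. TyrRS-m averaged 10.54 ± 1.44 CPM (Canton-S) and 12.9 ± 1.99 CPM (elav5/fne; SD, n = 3), where its groups overlapped.

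**Figure D2:**
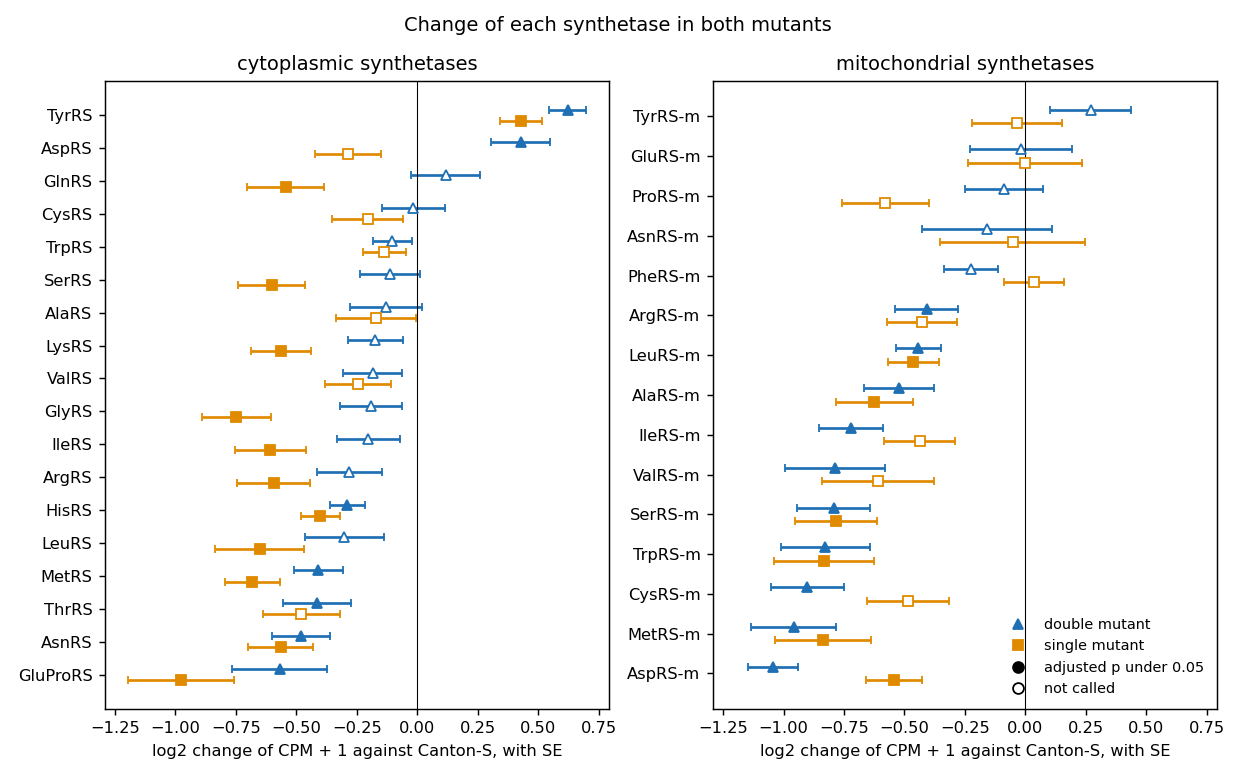
Log2 change of CPM + 1 against Canton-S for each synthetase gene in the double mutant (triangles) and the single mutant (squares), with bars for the SE from limma and filled points for adjusted p under 0.05. In the double mutant against Canton-S, 10 of 15 mitochondrial genes lie below 0 and pass the test, and TyrRS and AspRS are the cytoplasmic genes that pass it above 0.

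TyrRS and AspRS were the cytoplasmic enzymes that rose in the double mutant. TyrRS, the tyrosine enzyme (3L, 16417349 to 16419302, dm6), measured 72.0, 74.4 and 77.6 CPM (Canton-S), 92.5 and 110.0 CPM (elav5) and 119, 114 and 113 CPM (elav5/fne). The 3 genotypes did not overlap. TyrRS rose by 0.62 in the double mutant (SE 0.08, 95% interval 0.44 to 0.80, limma adjusted p = 0.00032). Its neighbour GluRS-m lies 171 bases away on the same strand and did not pass the test. It averaged 2.11 ± 0.81 CPM (Canton-S) and 2.02 ± 0.25 CPM (elav5/fne; SD, n = 3). GluRS-m shares 95 exon bases with Serinc on the opposite strand, which stood at between 201 and 330 CPM. The GluRS-m value is thus uncertain if strand was not used in the counting.

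AspRS, the cytoplasmic aspartate enzyme (2R, 12877004 to 12883168, dm6), measured 48.6, 63.9 and 55.4 CPM (Canton-S), 42.8 and 48.2 CPM (elav5) and 81.2, 66.4 and 78.8 CPM (elav5/fne). Every elav5/fne library was above all others, where 37.6% of all genes had every double mutant library above Canton-S, while both single mutant libraries lay below the lowest Canton-S library, 1 of them by less than 1 CPM. AspRS rose by 0.43 against Canton-S (SE 0.12, 95% interval 0.15 to 0.71, limma adjusted p = 0.017). That call was lost without Canton-S replicate 1 and without double mutant replicate 1, where the adjusted p reached at most 0.06. An antisense gene, asRNA:CR45141, covers 63.9% of its exon bases and stood at between 3.33 and 4.44 CPM in all libraries. Nmda1, which shares 127 exon bases with it on the opposite strand, stood at between 131 and 141 CPM in Canton-S and between 219 and 248 CPM in the double mutant. The AspRS value is therefore uncertain too if strand was not used in the counting.

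GluProRS, AsnRS, MetRS, ThrRS and HisRS were the cytoplasmic enzymes that fell in the double mutant, by between 0.29 and 0.57 on the log2 scale. ThrRS, with the highest mean CPM of all cytoplasmic members, measured 112, 135 and 104 CPM (Canton-S), 73.1 and 94.2 CPM (elav5) and 85.2, 77.6 and 99.0 CPM (elav5/fne), and fell by 0.41 (SE 0.14, limma adjusted p = 0.035). HisRS shares 255 exon bases on the same strand with Bx, which also stood lower in the double mutant, at between 80.1 and 116 CPM against between 170 and 181 CPM in Canton-S. GluProRS overlapped between the groups, and its call did not hold in 9 of 21 alternative fits, nor that of ThrRS in 6. The 7 cytoplasmic calls became 4 without Canton-S replicate 1 and 4 without double mutant replicate 1.

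The 11 cytoplasmic enzymes that passed the test in neither direction in the double mutant were AlaRS, ArgRS, CysRS, GlnRS, GlyRS, IleRS, LeuRS, LysRS, SerRS, TrpRS and ValRS. IleRS, second by mean CPM, measured 102, 134 and 100.4 CPM (Canton-S), 68.7 and 76.9 CPM (elav5) and 98.3, 86.3 and 106 CPM (elav5/fne). Canton-S and the double mutant overlapped for it, and the single mutant lay below both. TrpRS averaged 36.1 ± 2.35 CPM (Canton-S, n = 3), 32.8 ± 1.15 CPM (elav5, n = 2) and 33.6 ± 1.43 CPM (elav5/fne, n = 3; SD in each case) and was called in no comparison, while its mitochondrial partner TrpRS-m fell in both mutants.

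**Figure D3:**
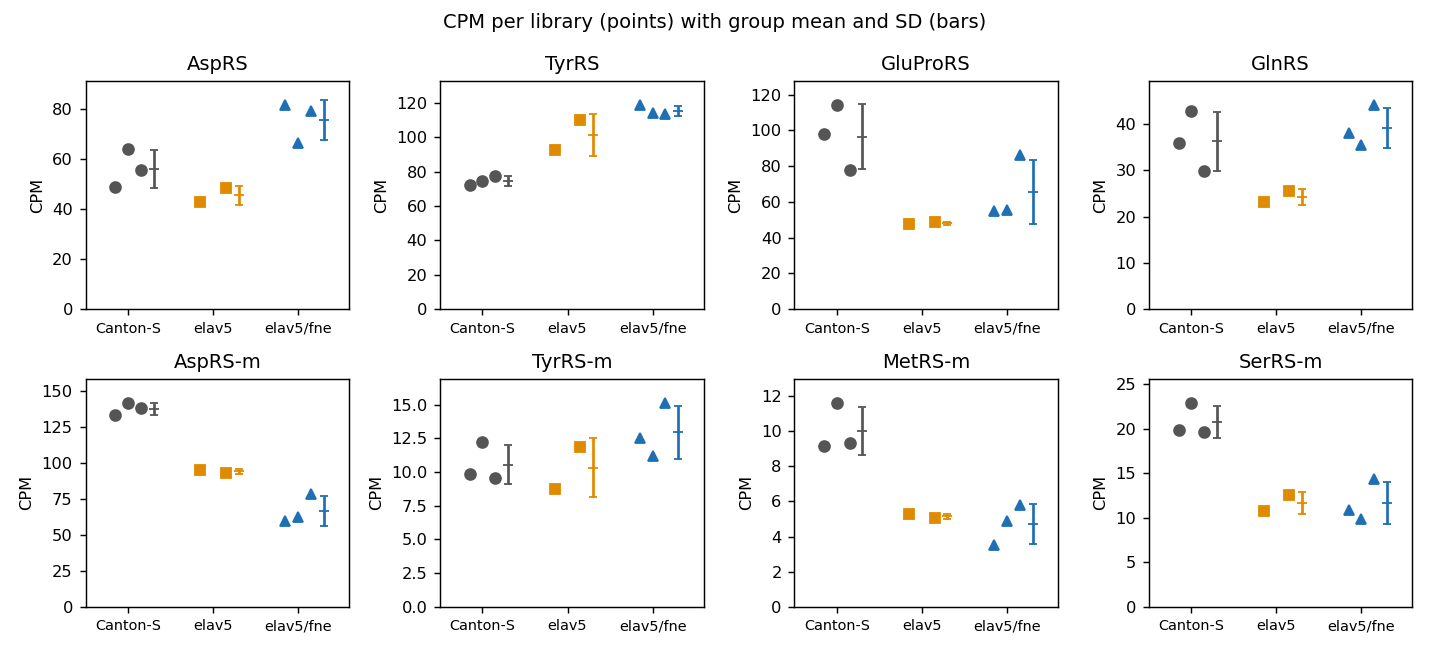
CPM of 8 selected synthetase genes in each library (points), with the group mean and SD as bars. AspRS-m steps down from Canton-S (133 to 142) through the single mutant to the double mutant (59.7 to 78.7), TyrRS steps up, and AspRS is highest in the double mutant.

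The enzymes of each amino acid were also set side by side. In 11 of the 14 pairs the mitochondrial enzyme had the lower log2 change in the double mutant against Canton-S. The pairs of GluRS-m and ProRS-m share GluProRS, so the pairs are not all separate. Methionine was the only pair in this comparison in which both enzymes fell past the threshold. Aspartate was the only pair with opposite calls, AspRS higher and AspRS-m lower. In the single mutant the mitochondrial enzyme had the lower change in 8 pairs, and both enzymes fell past the threshold in 3. The ratio of AspRS to AspRS-m in CPM was 0.36, 0.45 and 0.40 (Canton-S), 0.45 and 0.52 (elav5) and 1.36, 1.07 and 1.00 (elav5/fne). Every double mutant library was thus above every other library in this ratio.

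Summed over members, the cytoplasmic enzymes reached 1254, 1499 and 1161 CPM (Canton-S), 902 and 990.2 CPM (elav5) and 1169, 1067 and 1240 CPM (elav5/fne). The mitochondrial enzymes summed to 359, 394 and 373 CPM (Canton-S), 260.2 and 282 CPM (elav5) and 219, 219 and 272 CPM (elav5/fne). The cytoplasmic sum of the double mutant overlapped that of Canton-S and lay above that of the single mutant. The mitochondrial sum was below Canton-S in all mutant libraries, and the mutants overlapped. The ratio of the sums was 3.49, 3.80 and 3.11 (Canton-S), 3.47 and 3.51 (elav5) and 5.35, 4.87 and 4.56 (elav5/fne). Without AspRS-m, the largest mitochondrial term, the ratio was between 4.95 and 5.93 in Canton-S and the single mutant and between 6.42 and 7.36 in the double mutant, which again did not overlap.

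**Figure D4:**
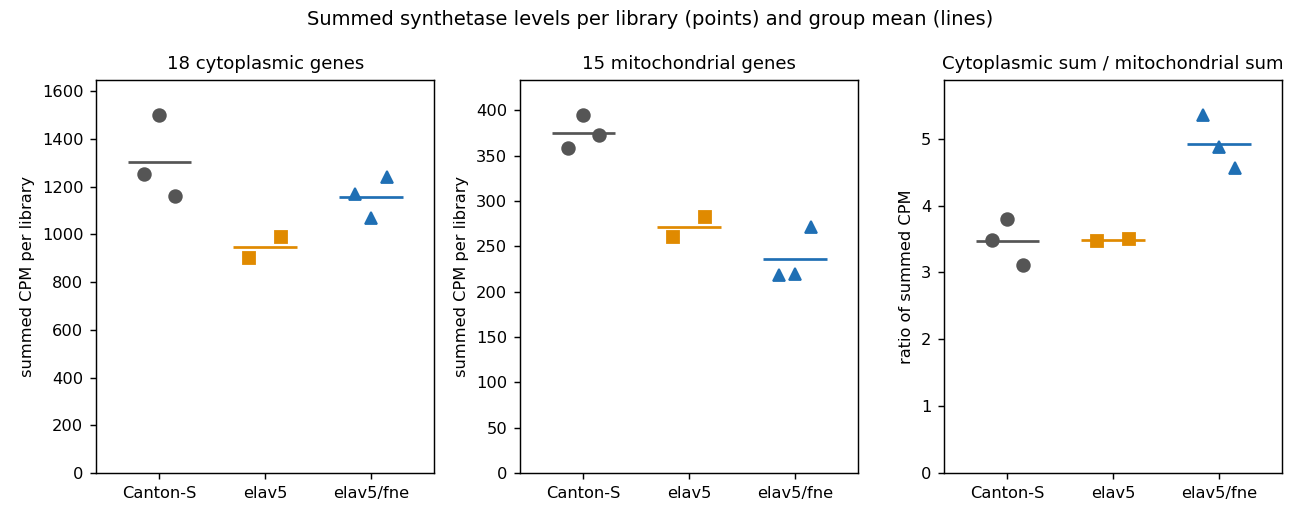
Summed CPM of the 18 cytoplasmic and of the 15 mitochondrial synthetase genes in each library (points), and the ratio of the sums, with lines at the group means. The cytoplasmic sum is lowest in the single mutant, and the mitochondrial sum is below Canton-S in both mutants. The ratio is highest in the double mutant (4.56 to 5.35).

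In the single mutant many synthetases of both compartments fell against Canton-S, in a comparison that shares its Canton-S libraries with that of the double mutant. Of the 18 cytoplasmic genes 11 fell, 61.1%, and of the 15 mitochondrial genes 6 fell, 40.0%, where 11.8% of all genes tested fell. TyrRS was the only member that rose, where 8.29% of all genes rose, and no mitochondrial gene rose by limma (also 0 at an unadjusted p under 0.05, by edgeR and by DESeq2). Over both directions 20.1% of all genes tested were called. The median log2 change was -0.55 over the cytoplasmic genes (range -0.98 to 0.43) and -0.49 over the mitochondrial genes (range -0.84 to 0.04), beside -0.04 over all genes.

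GluProRS, which joins the glutamate and the proline enzyme in a single protein, had the largest fall. It measured 97.9, 114 and 77.9 CPM (Canton-S), 47.4 and 48.7 CPM (elav5) and 54.7, 55.7 and 86.2 CPM (elav5/fne). The single mutant lay below all other libraries, and double mutant replicate 3 reached into the Canton-S range. GluProRS fell by 0.98 in the single mutant (SE 0.22, limma adjusted p = 0.021). MetRS-m fell by 0.84 (SE 0.20, limma adjusted p = 0.025) and TrpRS-m fell by 0.83 (SE 0.21, limma adjusted p = 0.029), with the values given above. TyrRS rose by 0.43 (SE 0.09, 95% interval 0.23 to 0.63, limma adjusted p = 0.015), a call lost in 3 of 21 alternative fits, among them those without Canton-S replicate 1 and without single mutant replicate 2.

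The other cytoplasmic genes that fell were GlyRS, MetRS, LeuRS, IleRS, SerRS, ArgRS, LysRS, AsnRS, GlnRS and HisRS. MetRS, the cytoplasmic methionine enzyme, went from 109 ± 13.6 CPM (Canton-S, n = 3) to 67.5 ± 0.45 CPM (elav5, n = 2) as mean ± SD. It fell by 0.68 (SE 0.11, limma adjusted p = 0.0088) and was the only member called in this comparison under all 21 alternatives. The other mitochondrial genes that fell were SerRS-m, AlaRS-m, AspRS-m and LeuRS-m. AspRS-m fell by 0.54 (SE 0.12, limma adjusted p = 0.018). AspRS, ThrRS, ValRS, AlaRS, TrpRS and CysRS among the cytoplasmic genes, and CysRS-m, ValRS-m, IleRS-m, ArgRS-m, PheRS-m, TyrRS-m, ProRS-m, AsnRS-m and GluRS-m among the mitochondrial ones, did not pass the test. The single mutant values of 13 cytoplasmic and 11 mitochondrial genes nevertheless lay wholly below Canton-S, where 30.7% of all genes tested did so.

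These counts rest on few libraries. Of the 11 cytoplasmic falls, 4 were left without Canton-S replicate 1, 4 without Canton-S replicate 2, 2 without single mutant replicate 1 and 4 without single mutant replicate 2, and the 6 mitochondrial falls became 0 when each of these 4 libraries was left out in turn and 10 without double mutant replicate 3. Canton-S replicate 2, the library with fat body markers, was the highest of its group for 28 of the 33 members. Single mutant replicate 2, which had the lower muscle and hemocyte sums and the higher glia sum of its group, was the highest for 26. The share over all genes was not computed, and a link with the markers was not tested.

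The mutants were also compared with each other. Of the 18 cytoplasmic genes 5 were higher, 27.8%, a share near the 26.8% of all genes tested that were higher. None was lower by limma (also 0 at an unadjusted p under 0.05, by edgeR and by DESeq2), where 16.7% of all genes were lower. Of the 15 mitochondrial genes only AspRS-m passed the test, and it was lower, where 43.4% of all genes passed in either direction. The median log2 change was 0.29 over the cytoplasmic genes (range 0.03 to 0.72) and -0.02 over the mitochondrial genes (range -0.50 to 0.49), beside 0.14 over all genes. Under TMM, median-ratio and quantile scaling the cytoplasmic median was between 0.16 and 0.19. The median over all genes moved down as well, to 0.04, 0.03 and -0.07 in the same order. The cytoplasmic calls became 3 under each, and quantile normalization raised the mitochondrial calls to 7. The sign of several members that did not pass the test turned under these scalings. In 12 cytoplasmic genes every double mutant library was above both single mutant libraries, where this held for 39.5% of all genes tested. In 4 mitochondrial genes every double mutant library was below both single mutant libraries, where 24.1% of all genes showed this.

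AspRS was 0.72 higher in the double mutant than in the single mutant (SE 0.14, 95% interval 0.40 to 1.03, limma adjusted p = 0.0042), and AspRS-m fell by 0.50 (SE 0.12, limma adjusted p = 0.011). Aspartate was again the only amino acid whose enzymes went in opposite directions past the threshold. GlnRS, the glutamine enzyme, measured 36.0, 42.8 and 29.9 CPM (Canton-S), 23.1 and 25.5 CPM (elav5) and 38.1, 35.4 and 44.0 CPM (elav5/fne). The single mutant lay below all other libraries and the other genotypes overlapped. GlnRS was 0.66 higher in the double than in the single mutant (SE 0.16, limma adjusted p = 0.012).

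GlyRS, the glycine enzyme, measured 60.4, 74.6 and 55.1 CPM (Canton-S), 34.8 and 39.4 CPM (elav5) and 57.8, 49.0 and 58.4 CPM (elav5/fne). Both single mutant libraries lay below all others and the other genotypes overlapped. GlyRS was 0.56 higher in the double than in the single mutant (SE 0.14, limma adjusted p = 0.016). SerRS and LysRS were the other members that were higher, by 0.49 (SE 0.14, limma adjusted p = 0.024) and 0.39 (SE 0.13, limma adjusted p = 0.037). These calls held in 11 (SerRS) and 7 (LysRS) of 21 alternative fits, with adjusted p up to 0.13 and 0.18. LysRS measured 95.1, 126 and 102 CPM (Canton-S), 66.9 and 77.6 CPM (elav5) and 97.4, 92.0 and 95.1 CPM (elav5/fne). The 5 cytoplasmic calls became 1 without single mutant replicate 1 and 3 without double mutant replicate 1 or replicate 3, and the mitochondrial calls became 2 without double mutant replicate 3.

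Counts by catalytic class and by membership of the human complex are given as description only, since these groupings were chosen with the values known. Of 9 mitochondrial class I genes and 6 class II genes, 7 and 3 fell in the double mutant. The cytoplasmic members of the human multisynthetase complex, ArgRS, AspRS, GlnRS, GluProRS, IleRS, LeuRS, LysRS and MetRS, numbered 8. Of these, 7 fell in the single mutant with a median log2 change of -0.60, where 11.8% of all genes fell. In the double mutant 2 fell and 1 rose, shares at or below those of all genes (26.7% and 32.5%). Of the other 10 cytoplasmic genes, 4 fell and 1 rose in the single mutant, and 3 fell and 1 rose in the double mutant. No difference between these groupings was tested.

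Both subunits of the cytoplasmic phenylalanine enzyme fell in the single mutant. alpha-PheRS averaged 41.6 ± 4.36 CPM (Canton-S), 27.0 ± 0.040 CPM (elav5) and 34.7 ± 1.83 CPM (elav5/fne), as mean ± SD over 3, 2 and 3 libraries. It fell in both mutants, by 0.60 (SE 0.11, limma adjusted p = 0.01) in the single and by 0.25 (SE 0.09, limma adjusted p = 0.0498) in the double mutant. beta-PheRS fell by 0.82 in the single mutant (SE 0.19, limma adjusted p = 0.024) and did not pass the test in the double mutant, with 23.2 ± 5.64 CPM (Canton-S) and 16.4 ± 0.99 CPM (elav5/fne; SD, n = 3). Of 6 measured partners of the synthetases and genes of indirect charging, 4 fell in the double mutant and 1, AIMP2, in the single mutant, with medians of -0.41 and -0.45. Over all genes 26.7% fell in the double mutant and 11.8% in the single mutant, so the last count is near the background. AIMP3, a scaffold protein of the synthetase complex like AIMP2, fell by 0.49 in the double mutant, and GatA, a subunit of the mitochondrial amidotransferase that makes glutaminyl-tRNA from glutamyl-tRNA, fell by 0.81, as did Slimp, a seryl-tRNA synthetase paralog of mitochondria, by 0.52.

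The factors that act after charging were taken by compartment. In the double mutant 4 of 7 cytoplasmic elongation factors rose (57.1%) and 1 fell (14.3%), with a median log2 change of 0.61, where 32.5% of all genes rose, 26.7% fell and the median was 0.07. eEF1alpha1, which brings charged transfer RNA to the ribosome, went from 4320 ± 260 CPM (Canton-S) to 7706 ± 202 CPM (elav5/fne) as mean ± SD over 3 libraries. It rose by 0.84 (SE 0.11, limma adjusted p = 0.00046), and eEF1gamma and eEF5 rose by 0.76 and 0.66. The factor that fell was eEF1alpha2, at 163 ± 58.4 CPM (Canton-S) and 56.3 ± 1.02 CPM (elav5/fne; SD, n = 3). Its log2 change of -1.46 was the largest of the list in size (SE 0.24, limma adjusted p = 0.0013). Of 9 mitochondrial translation factors 6 fell (66.7%) and 1, mEFTu2, rose, with a median of -0.51. mEFTs, the exchange factor of the mitochondrial elongation factor Tu, went from 51.4 ± 5.996 CPM (Canton-S) to 17.2 ± 1.58 CPM (elav5/fne) as mean ± SD over 3 libraries, and fell by 1.53 (SE 0.14, limma adjusted p = 6.5e-05). mEFG1, which moves the mitochondrial ribosome along, fell by 1.34 (SE 0.11, limma adjusted p = 3.8e-05), and mEFTu1 fell by 0.69 (SE 0.09, limma adjusted p = 0.0003). In the single mutant 5 of the 9 mitochondrial factors fell (55.6%, against 11.8% of all genes), these 3 among them. Of the cytoplasmic factors 1, eEF5, rose and 1, eEF1delta, fell there (14.3% each), where 8.29% of all genes rose and 11.8% fell. Between the mutants 3 of the mitochondrial factors (33.3%) were lower in the double mutant, where 16.7% of all genes were lower. Of the cytoplasmic factors 3 were higher (42.9%), where 26.8% of all genes were higher.

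Genes of related amino acid and growth pathways were also listed. Of 14 genes of amino acid supply and the amino acid stress response, 7 rose and 1 fell in the double mutant (median 0.41), where 32.5% of all genes rose and 26.7% fell, and 1 rose and 2 fell in the single mutant, where 8.29% and 11.8% did. trbl, a tribbles pseudokinase, rose by 0.84 in the double mutant (SE 0.11, limma adjusted p = 0.00032). Nmdmc, a mitochondrial enzyme of folate metabolism, averaged 37.1 ± 1.55 CPM (Canton-S), 19.6 ± 2.59 CPM (elav5) and 60.2 ± 3.09 CPM (elav5/fne), and so fell by 0.89 in the single and rose by 0.68 in the double mutant (limma adjusted p = 0.0025 and 0.00043). CG6287 averaged 8.64 ± 3.57, 4.51 ± 0.115 and 39.8 ± 1.77 CPM in the same order and rose by 2.16 in the double mutant (SE 0.27, limma adjusted p = 0.00034).

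Of 11 genes listed as amino acid transporters, 7 fell (63.6%) and 2 rose (18.2%) in the double mutant (median -0.36). In the single mutant 3 fell and 3 rose (27.3% each). Over all genes 26.7% fell and 32.5% rose in the double mutant, and 11.8% fell and 8.29% rose in the single mutant. The list holds CG7708, which the reference names ChT, a choline transporter, and counts it among the falls. sbm averaged 276 ± 22.5 CPM (Canton-S), 113 ± 4.70 CPM (elav5) and 59.2 ± 13.2 CPM (elav5/fne), and fell by 2.22 in the double mutant (SE 0.15, limma adjusted p = 1.1e-05). CG7708 fell by 0.89 in the double mutant. CG1139, named acs in the reference, averaged 0.0107, 0.602 and 2.63 CPM in the same order, below the level of 3 reads in Canton-S. It is among the 2 genes counted as rising in the double mutant and passed the filter only through mutant libraries. Of 11 genes of tRNA processing and modification, 4 fell (36.4%) and 1 rose in the double mutant (median -0.32) and 5 fell (45.5%) in the single mutant (median -0.51), where 26.7% and 11.8% of all genes fell. Nsun2, a tRNA methyltransferase, fell in both, by 0.42 and 0.90, RNaseZ, which trims tRNA 3′ ends, by 0.70 and 0.81, and Elp2, a subunit of the Elongator complex, fell by 1.09 in the double mutant.

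Of 17 genes of TORC1 and Myc growth control, 7 rose and 2 fell in the double mutant (41.2% and 11.8%, median 0.21) and 3 rose and 2 fell in the single mutant (17.6% and 11.8%). Over all genes 32.5% rose and 26.7% fell in the double and 8.29% and 11.8% in the single mutant. S6k, the ribosomal protein S6 kinase, rose by 1.03 in the double mutant (SE 0.06, limma adjusted p = 8.1e-06), InR, the insulin receptor, by 1.01 and Akt1 by 0.57. Of 10 measured genes of mitochondrial genome maintenance and biogenesis, 3 rose and 3 fell in the double mutant (median -0.13), shares near the 32.5% and 26.7% of all genes. In the single mutant 5 fell (median -0.53), where 11.8% of all genes fell. tam, the mitochondrial DNA polymerase, averaged 12.2 ± 1.95, 7.78 ± 0.51 and 23.0 ± 2.40 CPM, again in that order, a fall of 0.58 and a rise of 0.86. ewg, a transcription factor related to human NRF1, rose by 1.74 in the double mutant (SE 0.11, limma adjusted p = 7.2e-06). CPM per gene do not tell the splice forms of ewg apart. Lon, a mitochondrial protease, fell by 0.56 in the double mutant. Of 5 genes of mitochondrial protein stress, 2 fell and 1 rose in the double mutant (median -0.23), and 3 fell in the single mutant (median -0.55), where 26.7% and 11.8% of all genes fell. Hsp60A, the mitochondrial chaperonin, fell by 0.57 and CG4538, listed as ClpX, rose by 0.55 in the double mutant.

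**Figure D5:**
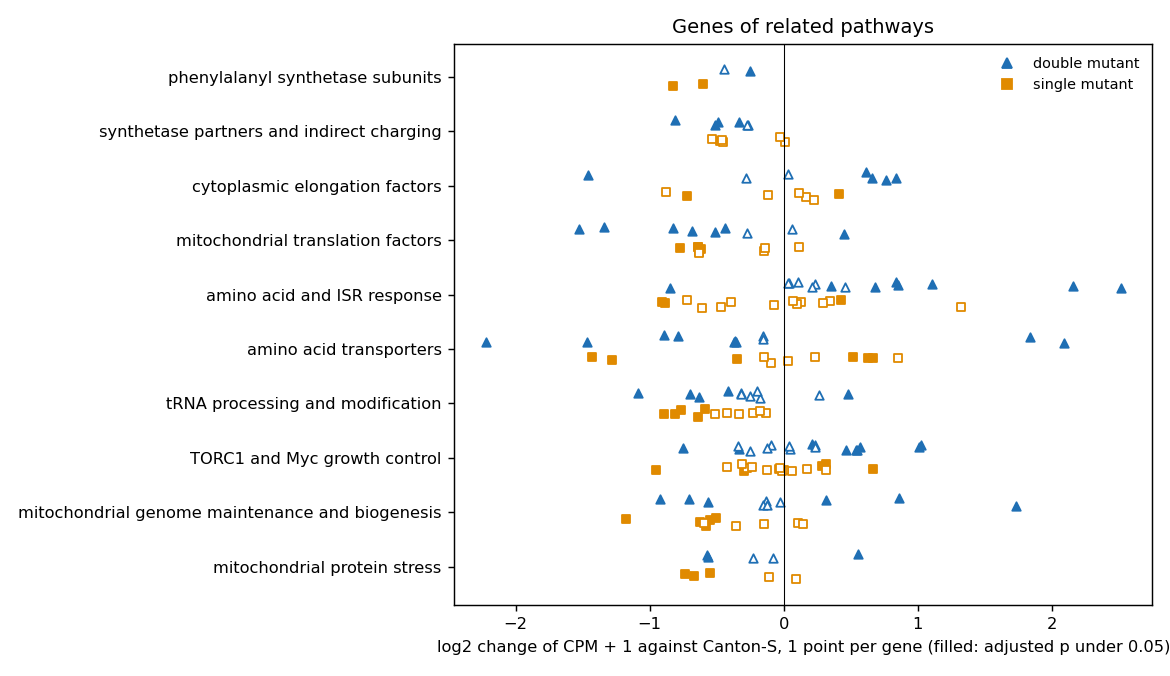
Log2 change of CPM + 1 against Canton-S for the genes of each list related to tRNA charging, in the double and in the single mutant, with filled points for adjusted p under 0.05. In the double mutant 4 of 7 cytoplasmic elongation factors pass the test above 0 and 6 of 9 mitochondrial translation factors pass it below 0.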

How the data were processed

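The deposited table gives CPM per gene for 8 libraries. The authors made it from reads aligned with HISAT2 to dm6, per the submitters' processing notes, and libraries came from a stranded total RNA kit, per the labels' protocols. What counted the reads, on which annotation and with which strand setting, is not given in the sources used. Whole reads were recovered from the steps of the CPM values for 100% of the nonzero entries checked, within 0.01 of a read. The entries with the most reads were left out of that check. Depending on the library, 3 reads equal 0.0788 to 0.0999 CPM, and this floor reflects counting error alone. Of 17807 gene IDs, 17710 were in the reference annotation (BDGP6.54), which gave coordinates and exon lengths, and 56 missing or date-like symbols were filled from the ID.

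A gene entered the tests if 2 or more libraries had 1 CPM or more, which 10575 genes did. Values of log2(CPM + 1) from the 8 libraries were fitted with limma 3.58.1 (R 4.3.3), using its trend option and a mean per genotype, with Benjamini-Hochberg adjustment over these genes. The scale understates fold changes of genes with few reads. Because the single mutant has 2 libraries, all groups share 1 estimate of the spread. There were 21 alternatives. They were a pseudocount of 0.1 or of 5 CPM, testing every gene or only those with a mean of 5 CPM, scaling by TMM or by median ratios, quantile normalization, edgeR 4.0.16 and DESeq2 1.42.0 on the recovered reads, limma with no trend, fits of only 2 groups, a block for the replicate number, the loss of each of the 8 libraries in turn, and the loss of both elav5 replicate 2 and elav5/fne replicate 3. With a single mutant library left out, the lone library is assumed to vary like the other groups. edgeR on these reads called 6404 genes in the double mutant and 1979 in the single mutant against Canton-S and 4313 between the mutants, where limma called 6259, 2124 and 4593. The method was checked on simulated data in which few genes changed and as many rose as fell. That setting differs from these data, where 59.2% of genes were called in the double mutant against Canton-S, so the check does not cover it.

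The members and the 10 pathway lists (101 entries, 96 matched, 10 of them by synonym) were chosen with earlier results of these data known. Each member is named. Values by library are given for the 5 largest rises and falls past the threshold in the double mutant, the 3 largest in the other comparisons, opposite pairs and the 3 members of each compartment highest in CPM, and 3 genes of smallest p are named per list. LysRS and genes given by group means alone are additions. Protein and promoter comparisons were not made here.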

Additional observations from a re-analysis of the deposited data

Results flagged for a closer look

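AspRS and GlnRS had differences from Canton-S of opposite sign in the 2 mutants, and the difference between the mutants passed the test. For AspRS the log2 difference from Canton-S was -0.29 in the single mutant (limma adjusted p = 0.18, not past the threshold) and 0.43 in the double mutant, and the difference between the mutants was 0.72 (limma adjusted p = 0.0042). All 3 double mutant libraries lay above both single mutant libraries, and the call between the mutants held in all 21 alternative fits.

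For GlnRS the log2 difference from Canton-S was -0.54 in the single mutant (limma adjusted p = 0.0479, called in 5 of 21 alternative fits) and 0.12 in the double mutant (SE 0.14, limma adjusted p = 0.5), and the difference between the mutants was 0.66 (limma adjusted p = 0.012). The small difference between the double mutant and Canton-S did not keep its sign when Canton-S replicate 3 was left out. The difference between the mutants lost its call in 2 of 21 alternative fits.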

How the results depend on the processing

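In the double mutant against Canton-S, 12 of the 17 called members stayed called in all 21 alternatives, and the exceptions were AspRS, GluProRS, ThrRS, AlaRS-m and ArgRS-m. Leaving out 1 library at a time gave 4 to 9 cytoplasmic and 8 to 10 mitochondrial calls. In the single mutant MetRS was called in all alternatives, and leaving out 1 library gave 3 to 12 cytoplasmic and 0 to 10 mitochondrial calls. The medians then stayed between -0.64 and -0.43 for the cytoplasmic and between -0.53 and -0.41 for the mitochondrial set, while calls over all genes ranged from 820 to 2550, against 2124 with all libraries. Between the mutants AspRS and AspRS-m were called in all alternatives, and leaving out 1 library gave 1 to 6 cytoplasmic and 1 to 2 mitochondrial calls.

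Between the mutants, cytoplasmic calls numbered 3 under TMM, median-ratio and quantile scaling, under edgeR and with the replicate block, and 2 when replicate 2 of elav5 and replicate 3 of elav5/fne were both left out. Mitochondrial calls there numbered 2 under TMM, edgeR and limma without the trend, 3 under median-ratio scaling, 4 under DESeq2 and 7 under quantile normalization. The cause was not tested. With the replicate block the single mutant against Canton-S gave 4 cytoplasmic and 0 mitochondrial calls, and TyrRS lost its call. Whether the replicate numbers pair libraries across genotypes was not settled. Same-numbered libraries correlated between -0.36 and 0.11 in their deviations from the group means, and not every library correlated best with its own number. Within a group of 2 or 3 libraries these deviations depend on each other, so the correlations cannot exclude a shared batch. GlnRS in the double mutant against Canton-S ranged from -0.0094, without Canton-S replicate 3, to 0.24 as single libraries were left out.

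Quantile normalization moved the median of all genes from 0.07 to -0.11 in the double mutant against Canton-S and from 0.14 to -0.07 between the mutants. The medians of the mitochondrial set were then -0.70 and -0.39. Of all genes called, 3435 of 6259 were higher in the double mutant than in Canton-S and 2653 of 6428 under quantile normalization, and 2830 of 4593 between the mutants against 2056 of 4777. Median-ratio scaling gave 984 of 1980 higher in the single mutant against 877 of 2124. The deletion alleles have no control of their own background here, and genes with few reads, such as GluRS-m, allow the least precision.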
